A study of Mus musculus with 6 samples.

Results

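The loci described here carry the name of a mouse gene but hold no Ensembl transcript, only transcripts that were assembled from the reads of these libraries. They were chosen by 3 features of the count table: a gene name, the absence of an Ensembl transcript and a measured value, a count of 60 or more summed over all 6 libraries. This gave 9763 of 91725 rows, carrying 4255 gene names, out of 28474 assembled-only named rows at any count. The selection used the sum over both groups and not their difference, but a locus could reach that sum through either group alone. The loci were also assembled from the reads of these same libraries. The comparison of groups below can therefore not be taken as independent of the selection. At the edge of the rule, 142 loci had a summed count of exactly 60 and 157 had 59. The median summed count was 111, with 5265 loci below 120 and 657 at 600 or more.

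RNA-seq was carried out on primary endothelial cells (ECs) of C57BL/6 mice aged 2 months, with 3 libraries labelled Stk11-KO and 3 labelled WT. In the Stk11-KO animals loxP-flanked Stk11, which encodes the kinase Lkb1, was removed by Cre under the Cdh5 promoter, which is active in ECs (Stk11 ec-/-). The study found the excision mainly in ECs and not in dendritic cells. Whether other cells in a preparation kept the gene was not tested here. The sources used here do not say from which tissue the cells came or whether each library was a separate mouse, so the p-values measure the spread between these samples, which may be technical. No other treatment was given in the labels.

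Several features of the libraries bear on the group comparison. Counts per library in all rows ranged from 37114459 to 55545899 in the Stk11-KO group and from 22179567 to 52795240 in the WT group. The targeted gene itself did not differ: the Stk11 row stood at 58.7, 73.6 and 73.9 CPM (counts per 1e6 counts of the scaled library) in the libraries labelled Stk11-KO and at 62.4, 83.2 and 71.0 in WT, a log2 difference of -0.07 ± 0.27 (SE; edgeR adjusted p = 0.981), and a count over the whole gene does not separate the deleted exons. The genotype labels are therefore used as given. Xist, the X-inactivation RNA, was at 258 to 419 CPM in the Stk11-KO libraries and at 0.559 to 1.06 in WT, and 4 Y-linked genes summed to at most 0.269 and at least 20.0 CPM, so genotype and sex cannot be told apart in any result here. The 18 endothelial markers summed to 376 to 3115 CPM in the Stk11-KO libraries and 425 to 1018 in WT, and all 18 reached 1 CPM in some library. Of markers of other cells, 10 fibroblast genes summed to 294 to 12451 CPM against 1548 to 6144, 11 pericyte and smooth muscle genes to 974 to 4277 against 419 to 9097, 9 epithelial and mesothelial genes to 70.8 to 484 against 110 to 1690, and 14 leukocyte genes to 18.03 to 39.7 against 15.9 to 40.2. Of the leukocyte genes 8, among them Ptprc, Adgre1 and Itgam, were below 1 CPM throughout, while Cd68, Csf1r, Lyz2, Cd14, S100a8 and Fcer1g reached it in some library. In such bulk samples fewer cells of a type and less RNA per cell cannot be told apart, and the part of these markers in the results below was not tested.

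Transcript assembly joins aligned reads into transcript models, so it reports RNA wherever enough reads pile up, including places that no reference transcript covers. Unspliced pre-mRNA gives reads in introns, transcription past the poly(A) site gives reads downstream of a gene, antisense transcription gives reads on the opposite strand, and small structural RNAs give dense short stacks. Introns also hold repeats, retrotransposons and unannotated exons, each of which can give such a locus. A gene name on an assembled locus therefore records where it lies, not that it is part of the mRNA.

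Several of the loci with many counts lay over small structural RNAs, and the GENCODE M21 sequences (GRCm38) of 2 of these are shown because they identify the RNA that such a locus overlaps. Rnu1a1, on chromosome 11, encodes U1, the small nuclear RNA that recognises the start of introns, and the capitals mark its 8 bases that pair with a 5′ splice site. Rpph1, on chromosome 14, is the RNA subunit of RNase P, which trims the 5′ ends of tRNAs, and the first 300 of its 319 bases are given.
Rnu1a1: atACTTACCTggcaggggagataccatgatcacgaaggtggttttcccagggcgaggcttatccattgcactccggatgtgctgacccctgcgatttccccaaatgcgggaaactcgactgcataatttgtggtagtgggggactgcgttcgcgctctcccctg
Rpph1: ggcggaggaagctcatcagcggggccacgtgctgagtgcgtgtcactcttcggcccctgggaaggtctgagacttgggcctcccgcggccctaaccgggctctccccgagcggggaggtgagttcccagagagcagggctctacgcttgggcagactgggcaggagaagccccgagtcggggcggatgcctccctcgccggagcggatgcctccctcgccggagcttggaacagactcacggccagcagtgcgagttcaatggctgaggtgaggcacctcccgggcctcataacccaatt

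Most of the loci lay in introns. Against GENCODE M21, 7922 (81.1%) were intronic, 1612 intergenic and 229 overlapped an exon, and 8508 (87.1%) had no strand. All but 59 (9704) held a single assembled transcript. A row with Ensembl transcripts and exactly the same name existed for 8494 loci, and 6809 of these (80.2%) lay wholly inside it: 6082 without a strand, 414 on the opposite strand and 313 on the same strand. Another 1563 lay downstream of the annotated 3′ end, 28 upstream and 89 partly overlapped it. Of the downstream loci 1508 (96.5%) began within 2000 bases of the annotated end, with a median distance of 618 bases. Their number fell sharply past 2000 bases. Only loci with a gene name were taken, and how far from a gene a name was given is not stated in the sources used here. This edge can therefore not be read as a distance of transcription. For 1266 of the remaining 1269 loci the name occurred only in a row that joined several genes. Loci were short, with a median length of 560 bases against 3331 for annotated named rows. They were also thinner in reads per base: the median of the mean FPKM (fragments scaled by transcript length and library size, which corrects for length) was 0.735 for the locus and 1.54 for the annotated row of the same name, and 2472 of 8494 loci (29.1%) had the higher value.

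**Figure D1:**
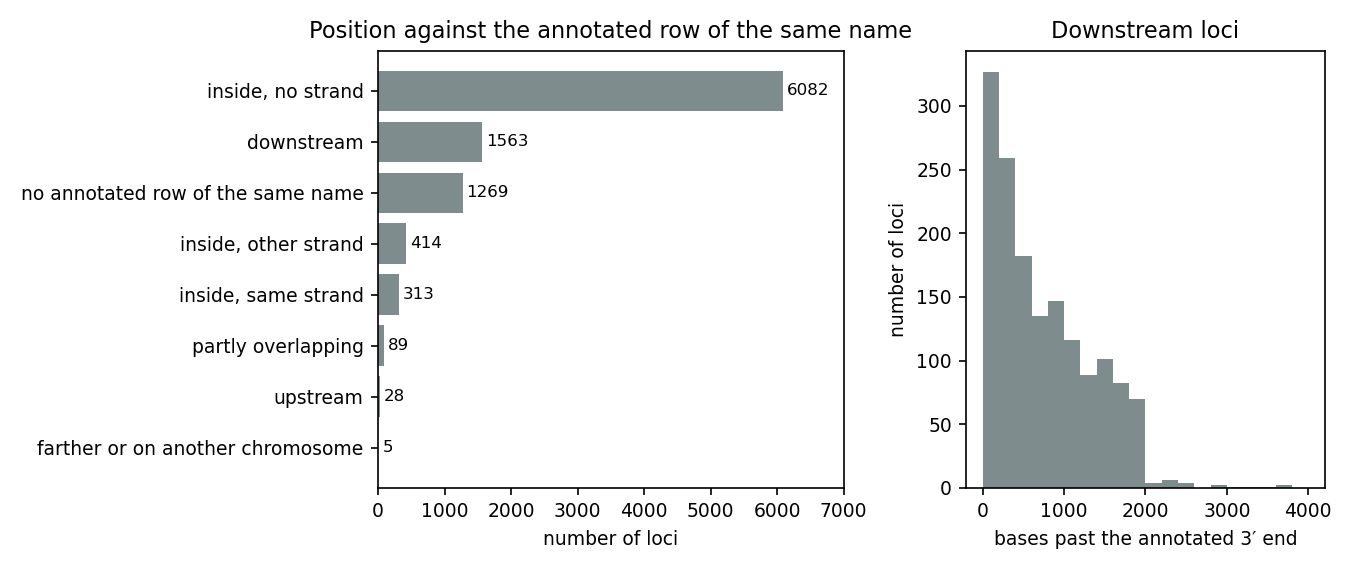
Left, number of loci in each position relative to the annotated row of the same name; most lay inside it without a strand (6082) and 1563 lay downstream. Right, number of downstream loci by distance past the annotated 3′ end in bins of 200 bases. In all, 1508 of 1563 began within 2000 bases, an edge that may depend on how gene names were given.

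Names were unevenly shared. Of the 4255 names 2677 had 1 locus, while 136 names had 10 or more and together held 2450 loci. Loci of the same name may share a transcript and were not taken as independent of each other. The loci were detected in most libraries: 4602 (47.1%) had counts in all 6 and 41 in only 1. Between 91.4% and 93.6% of the loci were detected in each Stk11-KO library and between 75.2% and 81.8% in each WT library, whereas annotated rows of 60 or more counts were detected at 96.4% to 98.2% and 94.2% to 95.5%. In 264 loci over 80% of the counts came from 1 library, which was Stk11-KO replicate 1, 2 or 3 for 37, 91 and 100 loci and WT replicate 1, 2 or 3 for 3, 14 and 19. The part of sequencing depth, of cell content and of which libraries fed the assembly in these numbers was not tested.

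As a share of the counts of all named rows, the loci took 4.63%, 7.79% and 8.30% in the Stk11-KO libraries and 5.81%, 13.1% and 13.3% in the WT libraries. The groups overlapped, and the difference of -3.84 percentage points was not larger than the spread (6.91% ± 1.99 against 10.7% ± 4.28, SD, n = 3 each; exact two-sided permutation test, p = 0.3, where 0.1 is the smallest value 3 against 3 can give). Most of this share came from 1 locus. CT010467, a ribosomal RNA locus at chr17:39842995-39847102, alone held 2.92%, 5.77% and 6.36% of the counts in Stk11-KO and 4.09%, 11.2% and 11.1% in WT. It lay on the strand opposite to the annotated CT010467 row, which held a further 7131, 943 and 41995 against 35004.5, 57998 and 29132 CPM. The share is therefore not all the ribosomal RNA of a library. Without the 5 loci with the most counts the order turned, with 1.14%, 1.55% and 1.27% in Stk11-KO and 1.27%, 1.08% and 0.928% in WT, a difference of 0.23 percentage points (exact permutation p = 0.2) that again lay within overlapping groups.

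**Figure D2:**
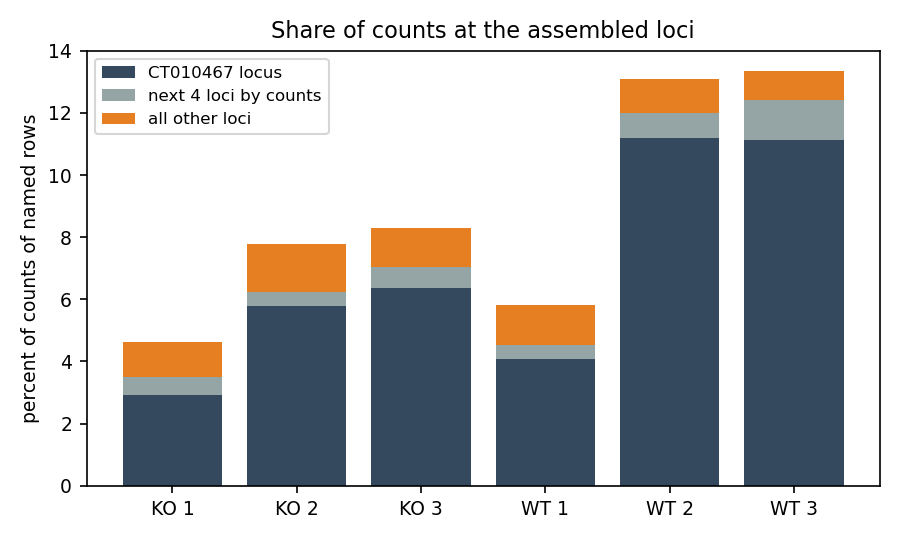
Percent of the counts of all named rows that fell on the assembled loci in each of the 6 libraries (KO, labelled Stk11-KO), stacked as the CT010467 ribosomal RNA locus, the next 4 loci by counts and all other loci. The total runs from 4.63% to 13.3% and is mostly CT010467; the top segment stays between 0.928% and 1.55%.

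Gene expression was compared between groups with edgeR's quasi-likelihood test over all 26105 named rows with enough counts, of which 7929 were assembled loci; the other 1834 loci fell below the filter on low counts. Of the 7929, 1 was higher in the Stk11-KO libraries at an adjusted p under 0.05 and 0 were lower, where 0.0345% of all tested rows were called higher and 0.023% lower. DESeq2 called 94 loci higher and 39 lower (0.978% and 0.406% of 9609 with an adjusted p), against 0.664% and 0.465% of all rows. Without the filter on low counts edgeR called 149 and 60 (1.53% and 0.615% of 9763), against 0.867% and 0.614% of all rows, so the number of calls depended on the method. Taking the unadjusted p under 0.05, 325 loci (4.10%) were higher and 96 (1.21%) lower, against 4.17% and 2.36% of all tested rows, so the share of higher loci was near the background and that of lower loci was below it. Groups did not overlap, with all 3 Stk11-KO values above or below all 3 WT values, at 799 loci (10.1%) upwards and 266 (3.35%) downwards, against 8.17% and 5.5% of all tested rows. The median log2 difference, Stk11-KO minus WT, was 0.25 over the loci, 0.06 over all tested rows and 0.02 over annotated rows. By class, the median was 0.30 over 6372 intronic loci, 0.10 over 1376 intergenic ones and 0.20 over 181 exonic ones. These medians rested on single libraries: without Stk11-KO replicate 2 the value for the loci was 0.09 (all rows, 0.04), and without WT replicate 1 it was 0.49 (all rows, 0.16).

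The one locus called lay in Golt1b, which encodes a Golgi vesicle transport protein. It was a 298-base stretch at chr6:142403346-142403643 (GRCm38), on the strand opposite to the gene and wholly over annotated exon sequence. Its counts were 581, 313 and 281 in the Stk11-KO libraries and 0, 0 and 0 in WT, or 9.76, 6.96 and 5.41 CPM against none. The groups were fully apart, and against a floor of 3 counts per WT library the mean was at least 77.3-fold higher (adjusted p = 0.0377). The Golt1b row itself, at 84.0, 76.9 and 62.1 against 51.0, 33.8 and 61.1 CPM, also had its groups apart but did not pass (log2 difference 0.61, edgeR adjusted p = 0.818). A second locus of the same name, downstream at chr6:142403950-142405441, had 2.49, 0.622 and 0.904 CPM against 2.28, 0.577 and 1.14. The call was lost in 5 of the 6 fits that left out 1 library, all but that without WT replicate 3 (adjusted p from 0.0906 to 0.242 in those 5), and with the replicate number as a block (adjusted p = 0.213). DESeq2 called it too (adjusted p = 1.84e-11).

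Further loci with given gene names had non-overlapping groups but did not pass the adjusted threshold in edgeR. DESeq2 called all 5 of the higher ones described next, with adjusted p from 3.89e-11 (Havcr2) to 6.99e-06 (Ctse). The locus in an intron of Havcr2, which encodes the immune checkpoint receptor Tim-3, had 9.72, 11.8 and 3.10 CPM in Stk11-KO and 0 in all WT libraries, at least 86.2-fold higher (edgeR adjusted p = 0.0799). That in Ofd1, a centriole and cilium gene on chromosome X, had 4.08, 1.96 and 2.29 CPM against 0, at least 29.1-fold (adjusted p = 0.115). Zfp981, a zinc finger gene whose family shares near-identical copies, had a locus at 2.40, 3.18 and 1.75 CPM against 0 in WT, at least 25.6-fold (adjusted p = 0.115). Annotated exons of any gene covered 69.0% of that locus, and the Zfp981 row reached at most 0.356 CPM. At all these loci the 3 WT libraries held no read while every Stk11-KO library held at least 88. Ctse, encoding the aspartic protease cathepsin E, had an intronic locus at 1.71, 2.82 and 1.85 CPM against 0 (adjusted p = 0.126), in a gene whose own row reached at most 0.0889 CPM. Slc15a2, a peptide transporter, had 5.64, 10.4 and 1.83 CPM against 0, 0.182 and 0 (log2 difference 6.53 ± 1.38, adjusted p = 0.302). The Slc15a2 row was also apart and higher, at 0.873, 3.89 and 0.731 against 0.651, 0 and 0.438 CPM (log2 difference 2.34, edgeR adjusted p = 0.839).

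In the other direction, an intronic locus of 6171 bases in Trim34a, of the interferon-inducible Trim family, had 0 counts in all Stk11-KO libraries and 8.75, 18.6 and 3.599 CPM in WT, at least 177-fold lower (edgeR adjusted p = 0.0799). The Trim34a row stood at 1.73, 0.756 and 1.85 against 9.69, 13.7 and 1.92 CPM, also lower in each Stk11-KO library than in any WT library but without passing (log2 difference -2.54, adjusted p = 0.586). Opposite-strand exonic loci lay in Sh3pxd2a, the podosome scaffold Tks5, and in Sfr1, a homologous recombination factor. The Sh3pxd2a locus, 297 bases at chr19:47261780-47262076, had 0 counts in Stk11-KO and 2.48, 1.31 and 7.56 CPM in WT (at least 64.95-fold lower, adjusted p = 0.166). The Sfr1 locus, 314 bases at chr19:47732643-47732956, had 0, 0 and 0.0192 against 0.855, 1.49 and 4.45 CPM (log2 difference -7.93 ± 1.301, adjusted p = 0.156). Both groups were apart at each, while the Sh3pxd2a and Sfr1 rows overlapped. Olfr1033, an olfactory receptor gene, had a partly overlapping locus at 0.537, 0 and 2.41 against 112, 200 and 17.0 CPM (adjusted p = 0.391). The Olfr1033 row was also apart and lower, at 0, 0.467 and 0 against 3.58, 6.65 and 2.55 CPM (log2 difference -4.79, edgeR adjusted p = 0.644). The locus past the end of Malat1, the nuclear speckle RNA, had 3.04, 5.53 and 1.92 against 8.47, 841 and 19.7 CPM (log2 difference -6.37 ± 1.75, adjusted p = 0.528). Its WT mean came from WT replicate 2, which held 27692 of the counts. The annotated row joining Malat1 with Gm27694 went the other way, at 9892, 14947 and 11552 against 4694, 5350 and 7590 CPM. Its groups were apart, but it did not pass (log2 difference 1.05, edgeR adjusted p = 0.709). Of these lower loci DESeq2 called Trim34a (adjusted p = 1.80e-13), Sh3pxd2a (1.24e-08), Sfr1 (2.53e-05) and Olfr1033 (0.0274), and gave no adjusted p for Malat1.

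**Figure D3:**
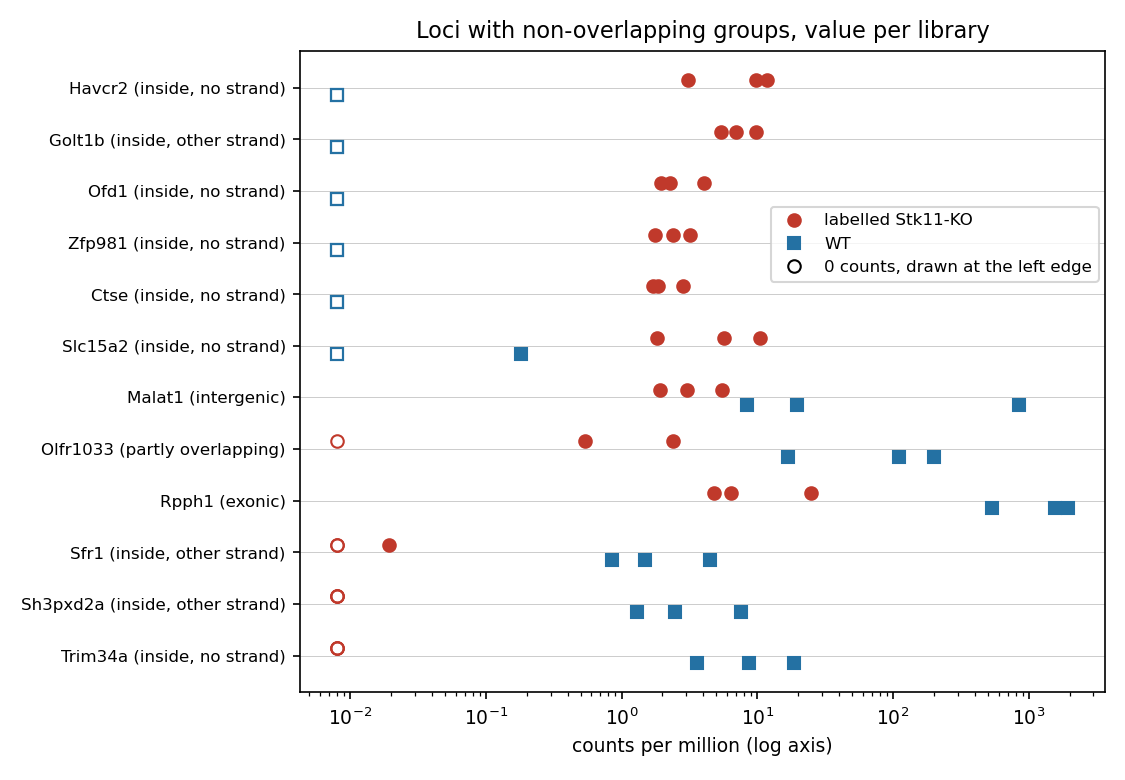
CPM (log axis) of 12 loci, the 6 in each direction with the largest log2 differences among those with given names, non-overlapping groups, an unadjusted p under 0.05 and a mean of at least 1 CPM, one point per library (circles, labelled Stk11-KO; squares, WT; open symbols at the left edge, 0 counts). Havcr2, Golt1b, Ofd1, Zfp981 and Ctse have no WT count and Trim34a and Sh3pxd2a no Stk11-KO count.

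Absence from a whole group was mostly one-sided. Of the 9763 loci 324 (3.32%) had 0 counts in all WT libraries and 24 (0.246%) in all Stk11-KO libraries. The shares were 0.647% and 0.158% of the 17761 annotated rows that met the same minimum summed count. Above that minimum the annotated rows were not matched to the loci in counts, and the part of count level in this contrast was not tested. Of the 324, 195 had counts in every Stk11-KO library, 22 lay on chromosome X and 35 on chromosome 12, and 7 of the 24 lay on chromosome Y. By class, 36 of 229 exonic loci (15.7%) were at 0 in WT, against 259 of 7922 intronic (3.27%) and 29 of 1612 intergenic ones (1.80%). A locus at 0 in a whole group met the minimum summed count through the other group alone. The lower depth of WT replicate 1 and the higher detection in all Stk11-KO libraries, given above, move with this count, and their part was not tested.

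Golt1b, Sh3pxd2a and Sfr1 belonged to 31 loci that lay on the opposite strand and over exons for at least 99% of their length, with a median length of 338 bases. Of these 31, 11 (35.5%) were at 0 in all WT libraries and 2 (6.45%) in all Stk11-KO libraries, against 3.32% and 0.246% of all the loci. Golt1b and Sh3pxd2a, which were named for their values, are in these counts. In 7 of them the counts came from a single library, in 5 cases Stk11-KO replicate 1: the Psap locus had 301 counts there and 0 in the other 5 libraries, and the Col4a2 locus at chr8:11445027-11446102 had 252 and 0. Psap encodes the precursor of lysosomal saposins and Col4a2 a basement membrane collagen chain. Because the sources used here do not state a strand-specific kit or count, reads from an opposite-strand locus and from the exon beneath it cannot be told apart.

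The loci were next compared with the annotated row of the same name, to see whether they moved with their gene. In each library the log2 ratio of the 2 counts was taken with 0.5 added, and limma tested the difference between groups over 7056 pairs, 6498 of them loci with 60 or more counts. The ratio was higher at 2 loci and lower at 1 (adjusted p under 0.05), which are 0.0283% and 0.0142% of the 7056 pairs, among which no other pair was called. These were Golt1b (log2 difference of the ratio 8.21 ± 0.86, adjusted p = 0.00484), Havcr2 (9.39 ± 1.13, adjusted p = 0.0118) and Sh3pxd2a (-7.90 ± 0.80, adjusted p = 0.00484). All 3 calls were lost without the trend (adjusted p = 0.0606, 0.0606 and 0.0867) and without Stk11-KO replicate 1 (0.165, 0.280 and 0.0693). The Golt1b and Havcr2 calls were also lost without Stk11-KO replicate 2 (0.124 and 0.221) or 3 (0.0838 and 0.107), and that of Havcr2 without WT replicate 2 (0.0603). All 3 had 0 counts in a whole group, so the size of these values depends on the 0.5 added. Taking the unadjusted p under 0.05, 239 loci (3.68%) were higher and 91 (1.40%) lower, against 3.61% and 1.63% of all pairs. Most of those pairs are these same loci, so the shares are not an independent background. The median difference of the ratio was 0.30, and -0.05 with 5 in place of 0.5 added, so it had no settled direction. Across the 6498 loci, which share libraries and often genes, the log2 differences of locus and row correlated weakly (Pearson r = 0.33, Spearman rho = 0.28), and 3978 pairs (61.2%) lay on the same side of 0.

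**Figure D4:**
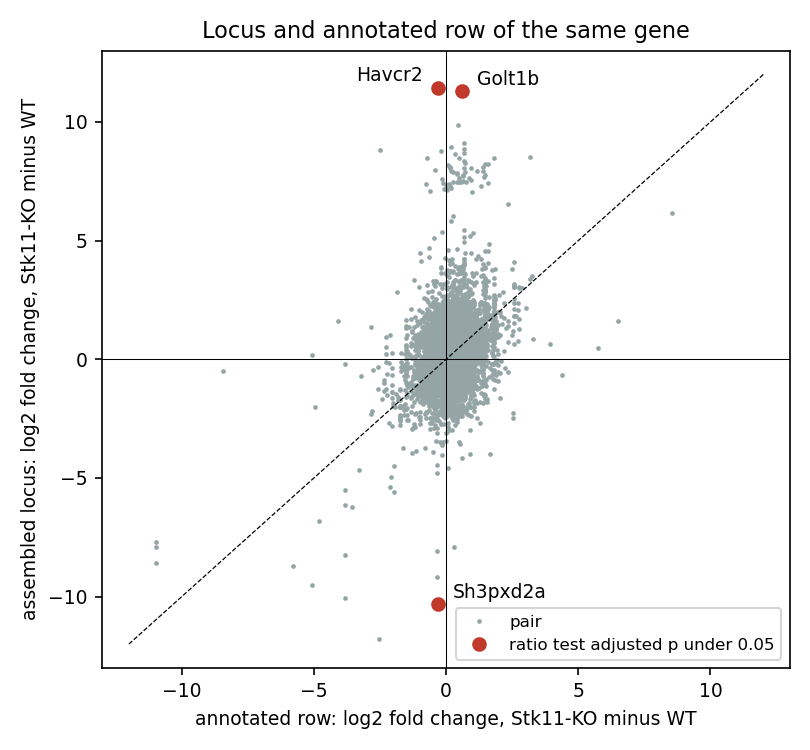
Log2 difference, Stk11-KO minus WT, of each assembled locus (vertical) against that of the annotated row of the same name (horizontal), one point for each of 6498 pairs; the dashed line marks equal values. Golt1b, Havcr2 and Sh3pxd2a, whose rows had log2 differences of 0.61, -0.32 and -0.32, are the 3 pairs with an adjusted p under 0.05 in the ratio test.

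Next in the ratio test, none passing the adjusted threshold, came further loci with 0 or few WT counts. Mast3 and Mast4 encode microtubule-associated kinases and Dclk1 a doublecortin-like kinase. The Mast3 locus had 0.537, 0.756 and 1.83 CPM against 0 (limma adjusted p = 0.128), the Dclk1 locus 0.604, 0.911 and 2.33 against 0 (adjusted p = 0.128) and the Mast4 locus at chr13:102973526-102975700 0.521, 4.24 and 3.14 against 0, 0 and 0.0973 (adjusted p = 0.137). The Dclk1 and Mast4 rows overlapped between groups, while the Mast3 row lay on the other side, at 27.2, 26.8 and 44.7 against 46.1, 48.9 and 67.3 CPM with the groups apart (log2 difference -0.72, edgeR adjusted p = 0.778). The Abcf1 locus had 0.353, 0.711 and 0.443 CPM against 0 (adjusted p = 0.269). Downwards, the intronic Klhl32 locus had 0.789, 0.533 and 0.519 CPM against 5.09, 16.6 and 8.02 (ratio difference -6.97 ± 1.77, adjusted p = 0.443). Sntg1, a syntrophin gene, had 1.07, 0.267 and 3.21 against 8.59, 10.8 and 2.505 CPM, and Eps8, encoding an actin regulator, 0.0672, 0 and 0.135 against 0.773, 0.851 and 0.924, with limma adjusted p = 0.443 and 0.444 for their ratios. Trim34a and Sfr1, described above, had ratio differences of -7.53 (adjusted p = 0.184) and -7.32 (adjusted p = 0.129).

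None of the 8 loci with the most counts passed edgeR's test at an adjusted p under 0.05, whereas DESeq2 called the Rpph1 (adjusted p = 2.17e-21) and 1700030N03Rik (5.98e-04) loci, and edgeR without the filter on low counts called these and the Rn7s2 and Tbce loci. CT010467 had 25594, 47358 and 67629 CPM in Stk11-KO and 36619.6, 130806 and 142464 in WT (log2 difference -1.14 ± 0.65, edgeR adjusted p = 0.846). The Rpph1 locus, 313 bases at chr14:50807446-50807758 and 99.04% exonic, had 285, 288 and 1285 counts against 13070, 51056 and 80313, or 4.79, 6.40 and 24.7 against 532, 1551 and 1953 CPM. Its groups were far apart, with a log2 difference of -6.81 ± 0.90 (adjusted p = 0.0733). A second row that joins Rpph1 with Ccnb1ip1 held 2876, 5714 and 16247 CPM in Stk11-KO against 4833, 14019.7 and 5801.5 in WT and did not differ (log2 difference 0.01, adjusted p = 0.999). How the counting divided reads between these rows is not given in the sources used here. Rn7s2, a gene of the signal recognition particle RNA with near-identical copies whose reads could be split, also had 2 rows: the assembled locus had 0.588, 1.80 and 33.8 against 520, 34.4 and 1849 CPM (log2 difference -6.05 ± 1.89, adjusted p = 0.617), while the annotated row joining Rn7s2 with its neighbours had 12083, 14436 and 49434 against 27272, 65471 and 74820.0 CPM. Stk11-KO replicate 3 and WT replicate 2 nearly met at the Rn7s2 locus. The locus over Rnu1a1 was present or absent library by library, at 155, 227 and 0 CPM in Stk11-KO and 0, 0 and 586 in WT, and the locus over Rn7s1 at chr12:69159302-69159590 had 0.0504, 0 and 50.5 against 4.68, 75.8 and 104.

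Of the other abundant loci, the row naming Mreg with Gm25360 and Gm23472 had 4947, 3732 and 2813 against 3019.6, 7512 and 12755 CPM, and the row Gm26444 with Gm24305 had 66.7, 103 and 2089 against 0.0814, 164 and 1484. The Tbce locus, inside a tubulin folding cofactor gene, had 11.4, 14.3 and 2153 against 426, 233 and 5.50 CPM, so Stk11-KO replicate 3 held most of its counts and the direction turned without that library (log2 difference 1.71, and -4.09 without it). The opposite-strand Ahnak locus, over the long exon of a giant scaffold protein, was even at 484, 467 and 557 against 511, 463 and 458 CPM (log2 difference 0.07 ± 0.27, edgeR adjusted p = 0.981). The 1700030N03Rik locus had 774, 444 and 908 against 33.0, 8.17 and 141 CPM, with groups apart (log2 difference 3.54 ± 0.93, adjusted p = 0.517), and the annotated row of that name reached 0.122 CPM at most.

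For genes with many loci the values were also summed over the loci of each gene. The CPM summed over the 63 loci of Nkain2, which encodes a Na,K-ATPase partner protein, was 34.8, 62.2 and 104 in Stk11-KO and 11.9, 25.5 and 7.61 in WT. All 44 tested Nkain2 loci had a log2 difference above 0, 19 with groups apart and 10 with an unadjusted p under 0.05 (8.17% and 4.17% of all tested rows were so on the higher side; the gene was picked after its values were seen), whereas the Nkain2 row was at 1.36, 2.49 and 5.58 against 2.32, 0.972 and 0.122 CPM (log2 difference 1.48 ± 0.99, edgeR adjusted p = 0.879). The 31 loci of Maml2, a Notch coactivator, summed to 111, 153 and 285 against 33.3, 83.7 and 81.7 CPM. All 28 tested Maml2 loci lay above 0, 14 with groups apart and 13 with an unadjusted p under 0.05, and the row joining Maml2 with Gm22643 had 32.8, 37.4 and 77.7 against 30.6, 29.4 and 28.3 CPM (log2 difference 0.74, adjusted p = 0.816). Neither name had a locus that passed the adjusted threshold in edgeR.

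The 51 loci of Mir99ahg, host of the miR-99a, let-7c and miR-125b-2 cluster, summed to 159, 38.2 and 162 against 32.2, 50.4 and 17.9 CPM, with the groups overlapping through Stk11-KO replicate 2. The Mir99ahg row was likewise lowest in replicate 2 among the Stk11-KO libraries, at 41.6, 6.51 and 30.9 against 10.8, 7.02 and 4.81 CPM (log2 difference 1.80, edgeR adjusted p = 0.703). Dip2c (59 loci) summed to 36.3, 95.5 and 49.6 against 16.4, 29.7 and 39.3 CPM and Mast4 (40 loci) to 3.83, 82.9 and 49.1 against 7.73, 3.31 and 12.3, so Dip2c overlapped and Mast4 was high in 2 Stk11-KO libraries only. Of the 65 names with 15 or more loci, 10 had sums that were apart and higher in Stk11-KO, 1 (Msi2) apart and lower, and 54 overlapping. Of all tested rows 8.17% were apart and higher and 5.5% apart and lower, though a sum over loci is not a single row. Marchf3 (28 loci), of the membrane-bound ubiquitin ligase family, summed to 54.2, 32.2 and 20.7 against 20.1, 19.9 and 14.9 CPM. Pak3 (22 loci), a p21-activated kinase, summed to 11.5, 13.5 and 15.7 against 2.48, 9.17 and 2.72, and Frmd4b (22 loci) to 6.35, 35.9 and 16.9 against 1.83, 2.31 and 4.79. The others apart and higher, beside Nkain2 and Maml2, were Kansl1l, Pde4d, Cdk13, Gm29904 and Pcmtd1. Gm29904, with 0 loci that entered the edgeR test, summed to 0.470, 48.0 and 0.981 against 0.122, 0 and 0.462 CPM, mostly from Stk11-KO replicate 2. These sums were not tested. The name with the most loci did not separate the groups. Galnt2l (86 loci) had 49.99, 89.2 and 75.4 against 96.1, 84.3 and 72.4 CPM, and Mir100hg (33 loci), host of miR-100 and let-7a-2, had 74.6, 102 and 124 against 102, 129 and 69.0.

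**Figure D5:**
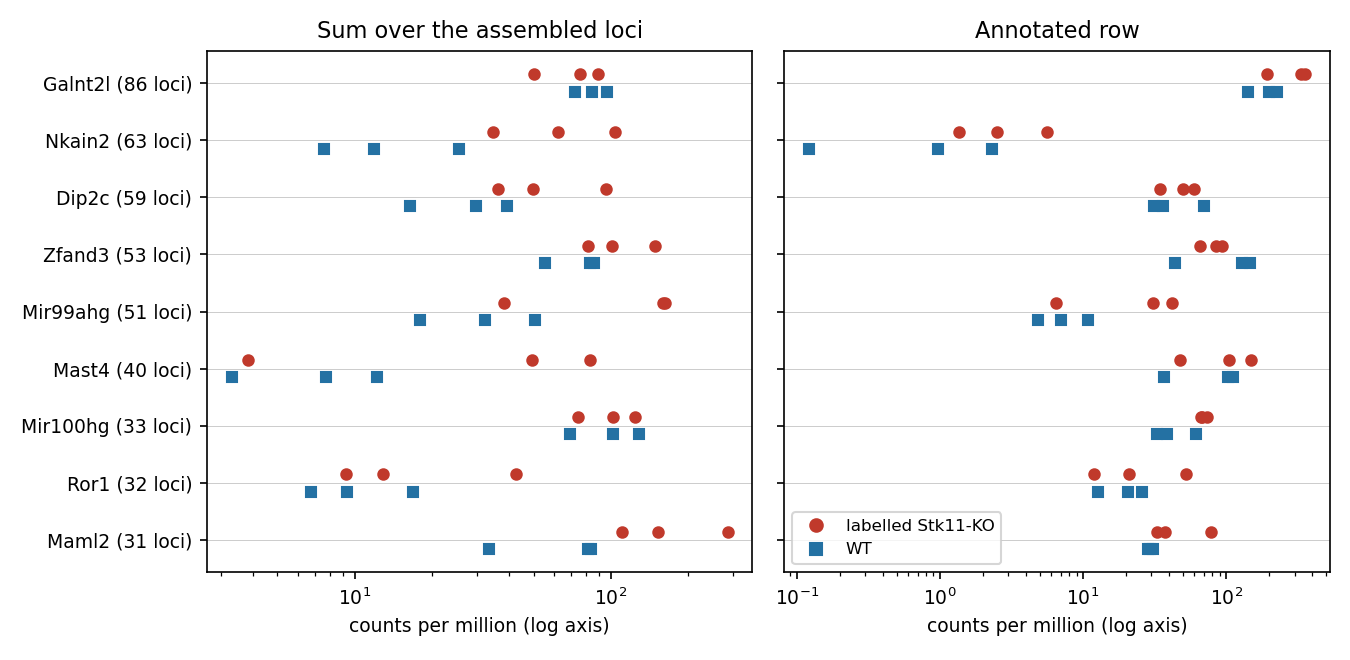
CPM (log axis) in each library for the 9 gene names with the most assembled loci; left, summed over the loci; right, the annotated row that holds the name (circles, labelled Stk11-KO; squares, WT). The sums for Nkain2 and Maml2 are higher in every Stk11-KO library than in any WT library; for Galnt2l, Mir100hg and Mir99ahg the groups overlap.

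Some loci followed chromosome neighbourhoods, named here after their values were seen. Cwc22 encodes a spliceosome protein that also loads the exon junction complex. Its 4 intronic loci summed to 26.9, 40.1 and 34.5 CPM in Stk11-KO and 1.55, 1.49 and 0.973 in WT, and all 4 had groups apart with an unadjusted p under 0.05. The largest, at chr2:77896661-77900657, had 14.5, 24.0 and 18.97 against 0.326, 0.425 and 0 CPM (log2 difference 6.28 ± 1.05, edgeR adjusted p = 0.166), and the next, at chr2:77944363-77945478, had 5.78, 7.65 and 7.48 against 1.22, 0.577 and 0.681 (3.08 ± 0.52, adjusted p = 0.168), and DESeq2 called both (adjusted p = 1.96e-13 and 5.66e-05). The row joining Cwc22 with Gm13727 passed the test, at 76.9, 88.4 and 45.4 against 3.87, 4.50 and 3.89 CPM (log2 difference 4.10 ± 0.37, adjusted p = 0.0171), and reads of near-identical copies, if present, could not be told apart. On chromosome 12 between 18 and 25 Mb, 24 of 33 tested loci were apart and higher, and 0 were apart and lower, where 8.17% and 5.5% of all tested rows were; the window was picked for this pattern. The 53 loci of that window summed to 28.3, 45.5 and 282 against 12.5, 9.30 and 5.91 CPM, with the largest value in Stk11-KO replicate 3.

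On the sex chromosomes, most of the few loci on Y were lower in Stk11-KO, as the Y-linked genes were, while most loci on X did not reach an unadjusted p under 0.05. The 14 intronic loci of Mid1, an X-linked microtubule-binding ubiquitin ligase, summed to 13.7, 10.4 and 18.1 against 0.488, 1.31 and 0.559 CPM, while the Mid1 row was at 27.2, 39.8 and 31.6 against 14.1, 16.2 and 32.05 (edgeR adjusted p = 0.856). The 5 intronic loci of Uty, a Y-linked histone demethylase family gene, were at 0 in all Stk11-KO libraries and summed to 2.28, 4.19 and 4.33 CPM in WT. Of the loci with an unadjusted p under 0.05, 21 higher and 2 lower ones lay on X among 215 tested, and 0 higher and 8 lower ones on Y among 9 tested. Over all tested rows 4.17% were higher and 2.36% lower, so the higher share on X lay above that of all rows. Of the 21 higher loci on X, 9 were Mid1 loci. A fit without rows on X and Y gave 311 higher and 86 lower loci at that threshold and again called the Golt1b locus.

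Fewer loci carried names from the gene lists. Of 42 splicing and RNA-binding genes 19 had 43 loci, 41 tested, of which 6 had an unadjusted p under 0.05 on the higher side (4 of them in Cwc22) and 0 on the lower, against 4.17% and 2.36% of all tested rows, with a median log2 difference of 0.50; the Hnrnpl locus at chr7:28811580-28812823 had 1.63, 2.93 and 3.77 against 3.17, 3.58 and 5.54 CPM. Of 39 extracellular matrix genes 11 had 14 loci, 12 tested, and 0 passed in either direction. Their most abundant loci lay on the opposite strand inside collagen and fibronectin genes: Col4a1 had 10.9, 13.4 and 14.9 against 14.9, 7.23 and 12.3 CPM, Col5a2 8.31, 4.64 and 12.5 against 2.52, 3.83 and 6.40, and Fn1 0.840, 16.5 and 3.69 against 3.74, 5.22 and 7.10, each with overlapping groups. Of 27 genes of the Lkb1 and AMPK-related kinases 6 had 16 loci, 15 tested, and 0 passed, with a median of 0.02. Mark3, one of the kinases that Lkb1 activates, had its largest locus at chr12:111652037-111653278 with 3.56, 3.64 and 2.85 against 5.17, 3.55 and 0.802 CPM. Its next loci, at chr12:111650812-111651668 and chr12:111583088-111584485, had log2 differences of 0.22 and -0.99 with overlapping groups.

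Of 20 nuclear and long noncoding RNAs 7 had 31 loci, 25 tested. The only 1 with an unadjusted p under 0.05, lower in Stk11-KO, was the Malat1 locus described above, whose annotated row lay on the higher side. Pvt1, a noncoding neighbour of Myc, had loci at chr15:62251843-62255564 with 4.45, 7.20 and 7.72 against 4.44, 8.17 and 5.98 CPM and at chr15:62040651-62042827 with 4.87, 7.89 and 4.87 against 7.94, 3.77 and 3.50. Of 17 snoRNA host genes 6 had 7 loci, all tested, and 0 passed; Snhg16 had 1.14, 1.24 and 1.40 against 0.529, 2.52 and 2.72 CPM, and both Snhg18 loci stayed at or below 1.501. Of the endothelial markers Cdh5, Emcn and Flt1 had 5 loci, 3 tested, and 0 passed. The Emcn locus at chr3:137350003-137352203 had 2.74, 5.96 and 0.866 against 0.326, 0.364 and 1.56 CPM, with overlapping groups. Of the pericyte and smooth muscle markers Myh11 and Pdgfrb had 1 locus each, neither tested, and no fibroblast, leukocyte or epithelial marker had one.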

How the data were processed

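The authors deposited 1 table of counts per assembled locus with matching FPKM for all 6 libraries; per the study's methods reads were aligned with HISAT2 to GRCm38 and StringTie served for differential expression, while the assembler is not stated there and the processing notes of the submitters list TopHat, Cufflinks, BWA and the mm9 build (no version is given). Coordinates were checked: 26036 of 26860 single Ensembl loci matched GENCODE M21 (GRCm38) exactly. Rows without a gene name, 0.359% to 0.887% of counts per library, were left out.

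From the deposited counts, named rows were tested with edgeR 4.0.16 (R 4.3.3; filterByExpr, TMM, quasi-likelihood F-test, genotype as the only factor, Benjamini-Hochberg adjustment over 26105 rows), with DESeq2 1.42.0 as an alternative. CPM uses TMM library sizes. Locus to row log2 ratios, with 0.5 added to each count, were tested with limma 3.58.1 (trend). The deposited FPKM values, which the authors scaled by length and depth, were used only to compare levels per length. Shares were compared by an exact permutation test. Folds against a group at 0 use a floor of 3 counts per library and are bounds; floors and totals cover counting error only. Scripts were tested on simulated data.

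Loci named in the text were those with an adjusted p under 0.05, the 8 with the most counts, up to 6 per direction with given names, non-overlapping groups, an unadjusted p under 0.05 and a mean of at least 1 CPM, up to 6 per direction with the smallest p in the ratio test, and up to 3 per gene list; others, including the genes with many loci and the chromosome windows, were named after their values were seen. The loci and the gene lists were chosen with earlier results of these data known. Alternatives were the filter, the scaling, DESeq2, a replicate block, all rows, other minimum counts, other added counts, and each library left out. The sequence of 1 further RNA is not reported here.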

Additional observations from a re-analysis of the deposited data

How the results depend on the processing

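Values below about 1 CPM rest on few reads. The count of 1 called locus became 209 without the filter on low counts and 133 with DESeq2, 0 with the replicate block, and 0 to 5 when 1 library was left out; chosen after seeing the data, the fit without replicate 3 of either group called 3. The 3 calls in the ratio test became 16 with 5 added to each count, 0 without the trend, 6 with 600 or more counts in both rows, 0 to 4 when 1 library was left out, and 1 without replicate 3 of either group; the replicate block left 3. The difference in the share of counts turned to 0.229 percentage points without the 5 loci with the most counts, and stayed between -6.30 and -2.54 when 1 library was left out. The cause of these shifts was not tested.

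Among the named loci, directions turned in the following cases, none of them called. Leaving out 1 library gave log2 differences from -2.69 to 3.21 for Gm26444 with Gm24305, -4.09 to 2.61 for Tbce, -0.14 to 0.32 and -0.036 to 0.68 for the Pvt1 loci, -0.76 to 0.34 and -0.61 to 0.63 for the Snhg18 loci, -0.037 to 0.42 for Col4a1, -1.23 to 0.91 for Fn1, and -0.36 to 0.62 and -0.27 to 0.50 for the first 2 Mark3 loci. With the replicate block Tbce was at -2.98 and Fn1 at -0.53, and the Golt1b call was lost (11.22, adjusted p = 0.213). Without replicate 3 of either group Tbce was at -4.66, Ahnak at -0.015, Pvt1 at -0.10, Snhg18 at -0.32 and Mark3 at -0.26. In all, 612 of 701 alternative values for 52 results on named loci kept both direction and side of the threshold, 46 passed it newly, 21 lost it and 22 turned. Most of the 52 results were not called in the main fit, so the 612 do not measure how stable the calls are. Whether the replicate numbers pair the libraries is not stated in the sources used here. Deviations of libraries with the same number correlated at 0.22, -0.18 and 0.05, which cannot decide it with 3 libraries per group.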
